A study of Mus musculus with 18 samples.

Results

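Ccnd1 and the G1 cyclin-CDK machinery were followed through 10 genes: the D-type cyclin genes Ccnd1, Ccnd2 and Ccnd3, the kinase genes Cdk4 and Cdk6, the inhibitor genes Cdkn1b, Cdkn2c and Cdkn2d, and their targets Rb1 and E2f1. The genes were chosen by symbol, and all 10 were present among the 18329 genes of the acute table and the 18953 genes of the survival table. Ccnd1 was selected on its high values in the second wave of KO leukemia, so its levels there are given as a description with no test, and the others were added to ask whether the use of D cyclins differed. Its direction in that wave is therefore no finding.

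RNA was sequenced in 18 libraries from leukemic spleens of C57BL/6 mice that had received T-cell acute lymphoblastic leukemia (T-ALL) cells with a conditional Acly allele by intravenous injection after sublethal irradiation. In KO acute mice (n = 4), overt leukemia was treated with tamoxifen, 3 mg per mouse in corn oil, which deletes Acly, and the spleen was taken 48 h later. WT acute mice (n = 4) received corn oil alone on the same schedule. In the survival arm treatment came 48 h after transplant and spleens were taken at the humane endpoint: KO first wave (n = 3) and KO second wave (n = 3) had received tamoxifen, and WT survival mice (n = 4) corn oil. KO and WT groups thus differed in tamoxifen as well as in Acly, and every group carried the conditional leukemia, the irradiation and the corn oil. The labels do not define the waves, and they do not tell whether replicate libraries are from different mice or the same primary leukemia, so p-values measure the spread between these libraries only. Neither the Cre driver nor the exons deleted are given in the sources used here.

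D-type cyclins are the regulatory subunits of CDK4 and CDK6, and the active kinases phosphorylate the retinoblastoma protein, encoded by Rb1, which then releases E2F transcription factors for entry into S phase. The INK4 proteins p18 and p19, encoded by Cdkn2c and Cdkn2d, bind CDK4 and CDK6 and keep D cyclins off them, whereas p27, encoded by Cdkn1b, chiefly inhibits cyclin E-CDK2. Normal T cells and their precursors rely mainly on cyclins D2 and D3, cyclin D3 and CDK6 are known requirements of NOTCH1-driven T-ALL, and cyclin D1 is little used in the lymphoid lineage.

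Normalized totals were 7.07 M to 8.03 M per acute library and 9.19 M to 10.39 M per survival library. Acly, the targeted gene, averaged 733 ± 85.1 normalized counts in KO acute libraries and 1256 ± 122 in WT acute libraries (SD, n = 4 each), and 727 ± 71.8 in the first wave, 576 ± 75.3 in the second wave and 1697 ± 154 in WT survival libraries. In both tables all KO libraries had less Acly RNA than any WT library. Of 16 T-ALL and thymocyte markers, Cd7 was near 0 in every group, and the other markers, among them Cd3e, Rag1, Dntt and Notch1, were present in all 5 groups. Mitochondrially encoded transcripts took 4.80% and 5.27% of the total in KO acute libraries 1 and 2, 2.35% and 2.70% in KO acute libraries 3 and 4, and 3.50% to 3.69% in WT acute libraries. On the first principal component of the survival table, which held 25.0% of the variance, second-wave library 1 lay at 73.2 and WT libraries 1 and 2 at -78.6 and -67.2, apart from the other survival libraries at -4.16 to 18.8.

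Promoter sequence of Ccnd3, Cdk4, Cdk6, Cdkn1b, Cdkn2c and Cdkn2d is shown because the groups did not overlap for these members in at least 1 comparison below. RefSeq windows on GRCm38.p6, 250 bases before an annotated start, were matched by symbol for 7 of the 10 members in 9 windows, all but Ccnd1, Ccnd2 and Rb1. The windows are printed in the direction of the gene, with motif matches in capitals, and the second Cdkn2c window, which held no match, is not printed.
Ccnd3 window 1, chr17:47504801-47505050, plus strand: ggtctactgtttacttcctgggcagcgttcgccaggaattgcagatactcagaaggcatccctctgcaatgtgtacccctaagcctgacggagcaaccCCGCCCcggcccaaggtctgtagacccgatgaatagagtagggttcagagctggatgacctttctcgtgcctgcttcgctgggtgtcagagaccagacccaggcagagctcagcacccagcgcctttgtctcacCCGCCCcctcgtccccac
Ccnd3 window 2, chr17:47593217-47593466, plus strand: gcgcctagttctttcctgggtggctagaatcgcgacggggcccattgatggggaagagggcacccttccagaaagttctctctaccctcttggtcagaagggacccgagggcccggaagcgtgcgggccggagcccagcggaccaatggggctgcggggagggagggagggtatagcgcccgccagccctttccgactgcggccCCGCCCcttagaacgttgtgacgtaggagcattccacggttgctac
Cdk4, chr10:127063285-127063534, plus strand: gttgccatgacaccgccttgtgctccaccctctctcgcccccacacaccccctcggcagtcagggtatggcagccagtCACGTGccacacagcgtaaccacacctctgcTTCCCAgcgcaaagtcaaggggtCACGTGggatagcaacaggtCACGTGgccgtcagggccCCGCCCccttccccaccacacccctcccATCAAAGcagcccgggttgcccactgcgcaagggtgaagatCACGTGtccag
Cdk6, chr5:3343643-3343892, plus strand: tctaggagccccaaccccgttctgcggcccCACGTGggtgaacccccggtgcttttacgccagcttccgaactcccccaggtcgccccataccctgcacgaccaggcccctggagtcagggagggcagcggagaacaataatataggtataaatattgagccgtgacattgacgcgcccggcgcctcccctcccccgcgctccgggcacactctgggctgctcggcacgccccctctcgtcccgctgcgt
Cdkn1b, chr6:134920151-134920400, plus strand: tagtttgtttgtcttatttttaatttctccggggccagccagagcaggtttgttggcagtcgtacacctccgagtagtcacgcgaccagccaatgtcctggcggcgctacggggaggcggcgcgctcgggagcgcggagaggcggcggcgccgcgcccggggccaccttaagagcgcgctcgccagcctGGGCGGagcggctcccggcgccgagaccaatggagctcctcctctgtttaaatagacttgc
Cdkn2c window 1, chr4:109666757-109667006, minus strand: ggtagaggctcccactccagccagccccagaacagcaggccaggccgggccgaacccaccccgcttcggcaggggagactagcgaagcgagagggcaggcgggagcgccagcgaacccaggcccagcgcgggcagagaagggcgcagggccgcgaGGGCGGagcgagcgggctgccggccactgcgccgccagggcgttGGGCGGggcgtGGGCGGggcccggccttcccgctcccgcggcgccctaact
Cdkn2d, chr9:21291210-21291459, minus strand: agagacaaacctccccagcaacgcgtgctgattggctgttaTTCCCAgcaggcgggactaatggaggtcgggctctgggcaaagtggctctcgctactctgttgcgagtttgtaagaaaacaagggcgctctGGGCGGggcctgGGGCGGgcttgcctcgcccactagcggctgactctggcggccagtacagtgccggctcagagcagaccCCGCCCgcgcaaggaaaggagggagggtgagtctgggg
The motifs searched on both strands were E2F (TTTGGCGC or TTTCGCGC), Sp1 (GGGCGG), AP-1 (TGANTCA), CRE (TGACGTCA), E-box (CACGTG, which reads the same on both strands), RBPJ (TGGGAA) and TCF/LEF (CTTTGAA or CTTTGAT). No match printed above overlaps another. Cdk4 held 4 E-boxes, a letter string found in 6.02% of 32851 promoter windows, together with 1 Sp1, 1 RBPJ and 1 TCF/LEF match, and Cdk6 held 1 E-box. Cdkn2c held 3 Sp1 matches in its first window, Cdkn2d held 3 beside 1 RBPJ match, the first Ccnd3 window held 2, and Cdkn1b held 1, against 32.7% of all windows with at least 1. The E2F strings, present in 0.654% of windows, were in none of the 9 member windows, and AP-1 (6.75%) and CRE (1.55%) matches were also not found. RBPJ matches were present in 21.6% of windows and TCF/LEF matches in 7.48%. These matches are descriptions of letters and not of binding.

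Within 48 h of treatment, 2 of the 10 genes passed the threshold, a limma adjusted p of at most 0.05 over all genes tested: Ccnd3 rose and Cdkn2c fell. Of the 14184 genes tested in these libraries, 12.6% were called, 4.58% as higher and 8.07% as lower. The groups did not overlap for the same 2 genes, against 19.0% of all genes. The median log2 fold change of the 10 genes was -0.07, against 0.03 over all genes tested, and 0.08 with the trend of fold change on length, GC content and abundance removed.

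At the humane endpoint no member with a test passed the threshold. In the first wave against WT, Acly itself missed it (log2 fold change -1.22, limma adjusted p = 0.0562), although the groups did not overlap. In the second wave against WT, Acly passed (-1.56, limma adjusted p = 0.00155). A lack of calls among the members therefore does not show that they were unchanged. In the first wave against WT, 0 of 10 genes were called (0.00% of 14286 genes), 1 gene, Ccnd1, had groups that did not overlap (8.0% of all genes), and 1 had an unadjusted p under 0.05 (8.02% of all genes). In the second wave against WT, 0 of the 9 genes with a test were called (0.224% of all genes), 2 did not overlap (9.66%) and 4 had an unadjusted p under 0.05 (13.0%). In the second wave against the first, 0 of 9 were called (0.119%), 5 did not overlap (13.6%) and 4 had an unadjusted p under 0.05 (6.34%). The survival medians were 0.06 for the 10 genes in the first wave, -0.16 for the 9 tested in the second wave against WT and -0.17 against the first wave, beside 0.01, -0.01 and -0.01 over all genes.

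**Figure D1:**
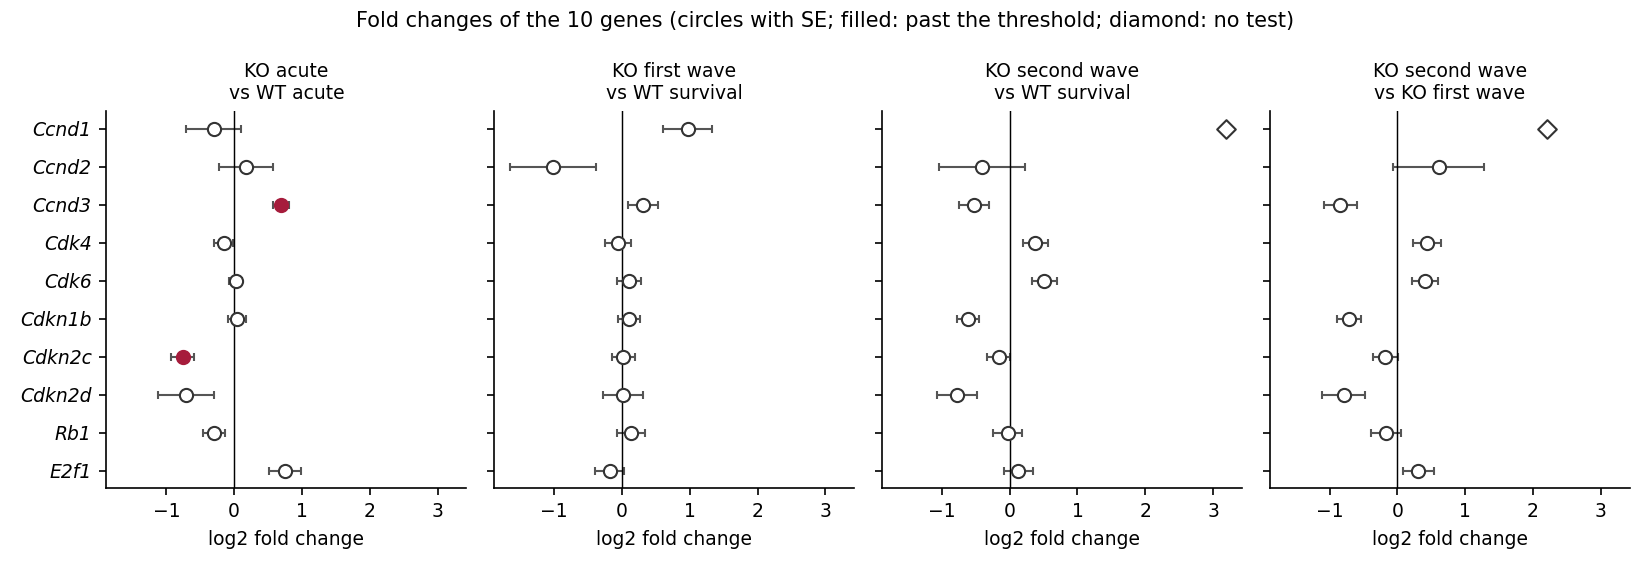
Log2 fold change of each of the 10 genes in the 4 comparisons, on the log2(normalized count + 1) scale. Circles are limma estimates with SE, filled where the adjusted p was at most 0.05, and diamonds are values given with no test; Ccnd3 at 0.70 and Cdkn2c at -0.76 in the acute comparison are the filled circles.

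Ccnd1 encodes cyclin D1 and lies at chr7:144929931-144939925 on the minus strand of GRCm38. Per mean coding transcript length it had the lowest mean level of the 10 members in every group but the second wave. There it averaged 144 ± 53.7 normalized counts per kb, above Ccnd2 (79.3 ± 38.6), Cdkn2d (67.4 ± 13.2) and E2f1 (118 ± 17.7, SD, n = 3 each). The spread of Ccnd1 overlapped those of E2f1 and Ccnd2. This rank rests on the length used: with the longest coding transcript, Ccnd1 was above Ccnd2 in 3 of 3 first-wave libraries. The second-wave libraries had 722, 572.5 and 324 normalized counts, the first-wave libraries 80.5, 118 and 138.5, and the WT survival libraries 78.8, 63.8, 33.8 and 55.1. All 3 second-wave libraries were above every first-wave library, and all 3 first-wave libraries were above every WT library, the closest pair being first-wave library 1 and WT library 1. The means were 539 ± 201 in the second wave, 112 ± 29.4 in the first wave (SD, n = 3 each) and 57.9 ± 18.8 in WT (SD, n = 4). The described log2 differences were 3.19 for the second wave against WT and 2.21 against the first wave, ratios of means of 9.32 and 4.80, and they stayed between 2.94 and 3.54 and between 1.96 and 2.54 under the 19 alternatives.

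The first-wave difference in Ccnd1 was tested, but the test is not independent of the choice of Ccnd1. It uses the first-wave and WT libraries against which the second wave was high, and shares its estimate of the spread with the second-wave libraries. Its log2 fold change was 0.97 (SE 0.36, unadjusted p = 0.0174, limma adjusted p = 0.617, n = 3 and 4), so the separation of the groups did not pass the correction. In the acute table Ccnd1 had 27.2, 90.4, 51.4 and 45.5 normalized counts in KO libraries and 51.4, 42.1, 106.0 and 59.4 in WT libraries. The ranges overlapped, at a log2 fold change of -0.30 (SE 0.40, limma adjusted p = 0.665).

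**Figure D2:**
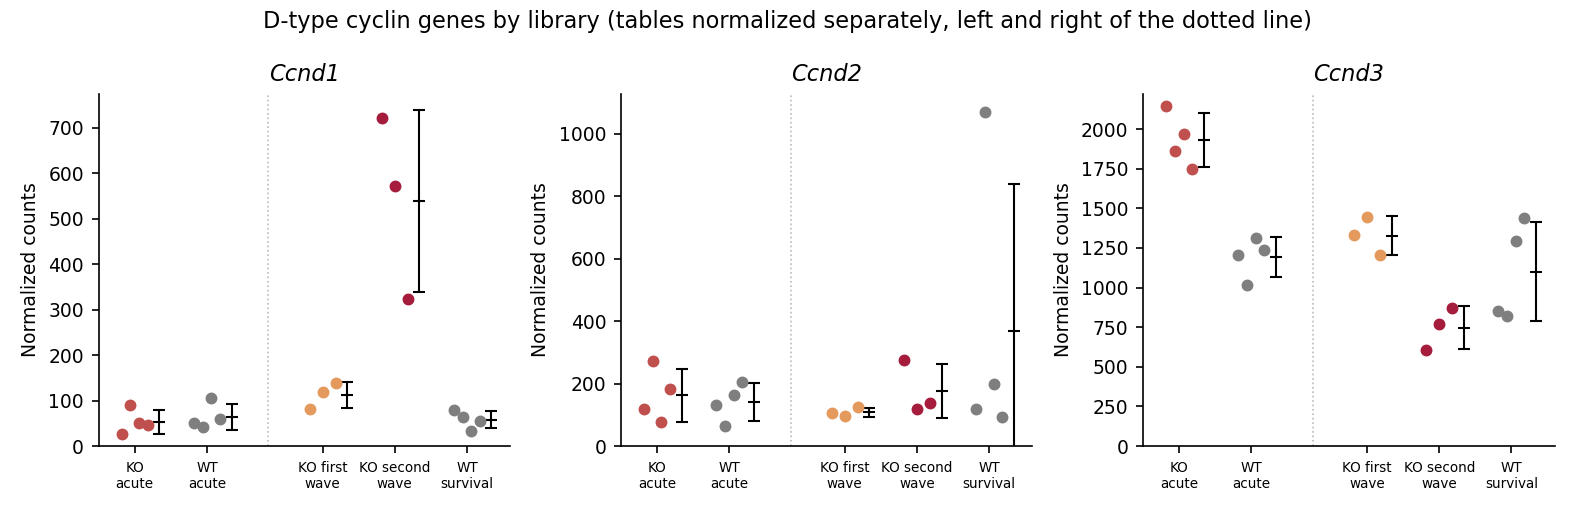
Normalized counts of Ccnd1, Ccnd2 and Ccnd3 in each library (points), with the mean and SD of each group (bars, cut at 0 for Ccnd2 in WT survival). The 3 second-wave points of Ccnd1 lie between 324 and 722, and the KO acute points of Ccnd3 lie between 1750.4 and 2147.5, above all WT acute points.

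Of the genes around Ccnd1, 5 with a test had bodies within 1 Mb, and none passed the threshold in the second wave against WT. Fadd, a death receptor adaptor, had a log2 fold change of 0.74 (SE 0.48, adjusted p = 0.537) and Ppfia1, a liprin scaffold, one of 0.50 (SE 0.17, adjusted p = 0.241). Cttn, the actin-binding cortactin, had -0.17, Tpcn2, a lysosomal cation channel, -0.33 and LTO1 -0.46. LTO1 is transcribed from the opposite strand and its body overlaps that of Ccnd1 by 1771 bases; how strand was handled in counting is not known here, and LTO1 averaged 95.4 ± 16.9 normalized counts in the second wave, 110.1 ± 15.6 in the first wave and 141 ± 62.0 in WT.

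**Figure D3:**
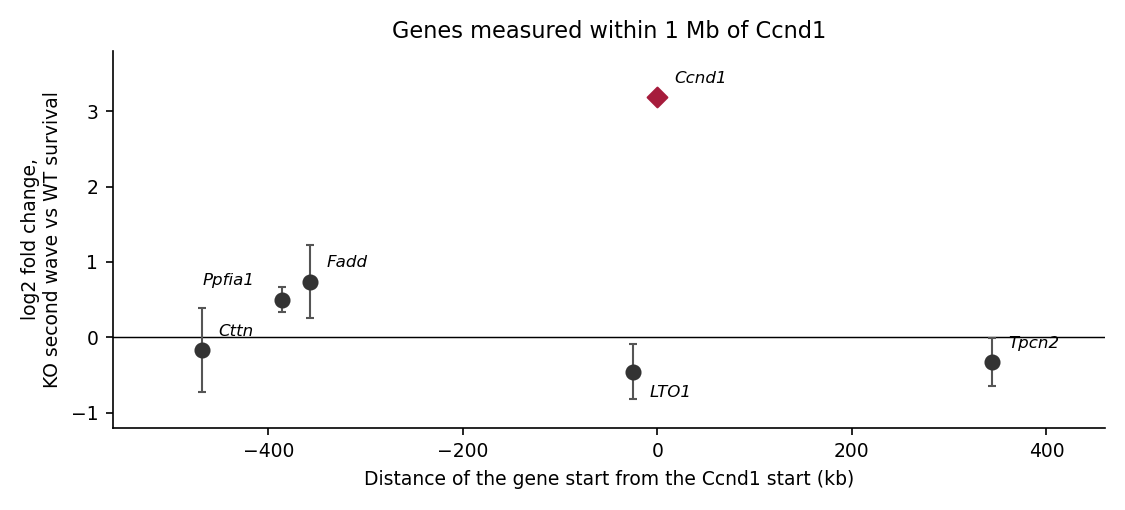
Log2 fold change in the second wave against WT survival for the genes within 1 Mb of Ccnd1, by the distance between gene starts in kb, with higher coordinates to the right. Circles show limma estimates with SE, and the diamond is Ccnd1 at 3.19 with no test; the neighbours lie between -0.46 and 0.74.

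Genes were ranked by likeness to Ccnd1, leaving out predicted genes, pseudogenes, and immunoglobulin and T-cell receptor segments. The genes whose levels most resembled that of Ccnd1 over the 10 survival libraries, out of 8316 with a mean of at least 100, were Amd1 (Pearson r = 0.94 on the log2 scale), Gpr83 (0.91), Pnn (0.90), Gnl3 (0.90) and Mbnl1 (0.89). Over the 8 acute libraries their r with Ccnd1 was 0.20, 0.14, 0.10, 0.36 and -0.20. The 10 libraries share the wave contrast on which Ccnd1 was selected, and the 3 second-wave libraries were the highest of all for each of these genes. Gpr83, an orphan receptor, ranged from 232 to 684 normalized counts in the second wave, from 88.6 to 101 in the first wave and from 60.2 to 85.9 in WT. Amd1, an enzyme of polyamine synthesis, ranged from 2216 to 3232, from 1584 to 1947 and from 1332 to 1594 in the same 3 groups.

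Ccnd2 (chr6:127125162-127152193, minus strand) encodes cyclin D2 and differed most within a group. The second-wave libraries had 276, 118 and 138 normalized counts, the first-wave libraries 106, 95.6 and 125, and the WT survival libraries 118, 1071, 197 and 92.4. WT library 2 was above all other libraries, and the remaining libraries overlapped. The log2 fold change was -0.41 in the second wave (SE 0.63, adjusted p = 0.810) and -1.01 in the first wave (SE 0.63, adjusted p = 0.661), and without WT library 2 these were 0.35 and -0.25. Second against first wave it was 0.61 (SE 0.67, adjusted p = 0.976). In the acute table KO libraries had 118, 272.5, 77.7 and 183 normalized counts and WT libraries 131, 64.0, 163 and 206, with a log2 fold change of 0.17 (SE 0.40, adjusted p = 0.818).

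Ccnd3 (chr17:47505051-47599691, plus strand) encodes cyclin D3 and was the D cyclin of highest level per length in all 18 libraries. In the acute table it rose, with 2147.5, 1862, 1969.8 and 1750.4 normalized counts in KO libraries against 1208, 1015, 1314 and 1239 in WT libraries. Every KO library was above every WT library, by a log2 fold change of 0.70 (SE 0.12, limma adjusted p = 0.00300). The call held under all 16 alternatives, with fold changes of 0.62 to 0.95. Over the same libraries the summed T-ALL and thymocyte markers were 54795 to 79471 normalized counts in KO and 83775 to 100261 in WT, and 1 of 15 tested markers was called higher and 5 lower. The 13 neutrophil markers were all higher on average in KO, 2 past the threshold, with sums of 1834 to 5225 in KO and 1045.0 to 1979 in WT, and of 12 erythroid markers 2 were called lower and none was higher, with sums of 5520 to 15049 in KO and 10266 to 17811 in WT. Of 5 stroma and endothelium markers tested, 1 was called higher, with sums of 1444 to 1611 in KO and 1027 to 1226 in WT. Dcn and Tek were near 0 in both groups. NK and mature T cell markers summed to 3021 to 3594 in KO and 4276 to 5318 in WT, with 1 of 9 called lower. B-cell markers summed to 557 to 1436 in KO and 421 to 902 in WT, with 10 of 10 above 0 and none called. The part of these markers in the Ccnd3 result was not tested. Ccnd3 was still called without KO libraries 1 and 2 (0.64). KO libraries 3 and 4 had T-ALL and thymocyte marker sums of 79471 and 70141, below the WT range, so that fit does not remove the difference in these markers. In a spleen suspension, fewer cells of a type and less RNA per cell cannot be told apart.

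At the endpoint Ccnd3 was lowest in the second wave. The second-wave libraries had 604, 769 and 869 normalized counts, the first-wave libraries 1331, 1448 and 1205, and the WT survival libraries 849, 820.5, 1295 and 1440. Second-wave and first-wave libraries did not overlap, while WT libraries 1 and 2 lay among the second-wave values and WT libraries 3 and 4 among the first-wave values. The log2 fold change was -0.84 against the first wave (SE 0.24, unadjusted p = 0.00327, limma adjusted p = 0.401) and -0.53 against WT (SE 0.22, adjusted p = 0.340), and that of the first wave against WT was 0.31 (SE 0.22, adjusted p = 0.693). Without WT libraries 1 and 2, the second-wave value against WT was -0.88 (adjusted p = 0.191) and the first-wave value was -0.04. Without second-wave library 1, the lowest, the values were -0.39 against WT (adjusted p = 0.620) and -0.70 against the first wave (adjusted p = 0.776). Ccnd3 and Bysl overlap by 361 bases on opposite strands.

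The makeup of the D cyclins was compared per length, after division by the mean length of each gene's coding transcripts. Cyclin D1 made up 8.82%, 16.2% and 21.5% of summed D cyclin levels in second-wave libraries 3, 2 and 1, a mean of 15.5% ± 6.4 (SD, n = 3), against 2.24% ± 0.69 in the first wave (SD, n = 3) and 1.35% ± 0.73 in WT (SD, n = 4). Even so, Ccnd3 made up 75.9% ± 10.3 of the sum in the second wave, 94.1% ± 1.34 in the first wave and 85.5% ± 16.2 in WT. Ccnd1 stood above Ccnd2 per length in 3 of 3 second-wave libraries and in 0 of the 15 others. That order rests on the length used, since with the longest coding transcript Ccnd1 was above Ccnd2 in 8 of the 15. The size of the Ccnd3 share rests on it too. Ccnd3 was the highest D cyclin in all 18 libraries with either length, but in 16 of 18 with no division by length. Undivided, second-wave library 1 had 722 normalized counts of Ccnd1 and 604 of Ccnd3.

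No test of a share passed the threshold, and exact tests on 3 or 4 libraries a group had little room to pass it after adjustment. The cyclin D1 share was 0.75% ± 0.38 in KO acute libraries and 1.38% ± 0.47 in WT acute libraries (SD, n = 4 each, exact two-sided permutation p = 0.114), and first wave against WT had an exact two-sided permutation p = 0.171. The Ccnd2 share of Ccnd2 and Ccnd3 was 10.4% ± 6.23 in the second wave and 3.72% ± 0.82 in the first wave (SD, n = 3 each, exact permutation p = 0.1, the lowest possible for 3 against 3). All 10 share tests had adjusted p of 0.524 to 1. Summed per length, D cyclins came to 940 ± 42.7 normalized counts per kb in the second wave, 1352 ± 108 in the first wave and 1237 ± 241 in WT survival, and to 1941 ± 142 in KO acute libraries and 1226 ± 151 in WT acute libraries.

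**Figure D4:**
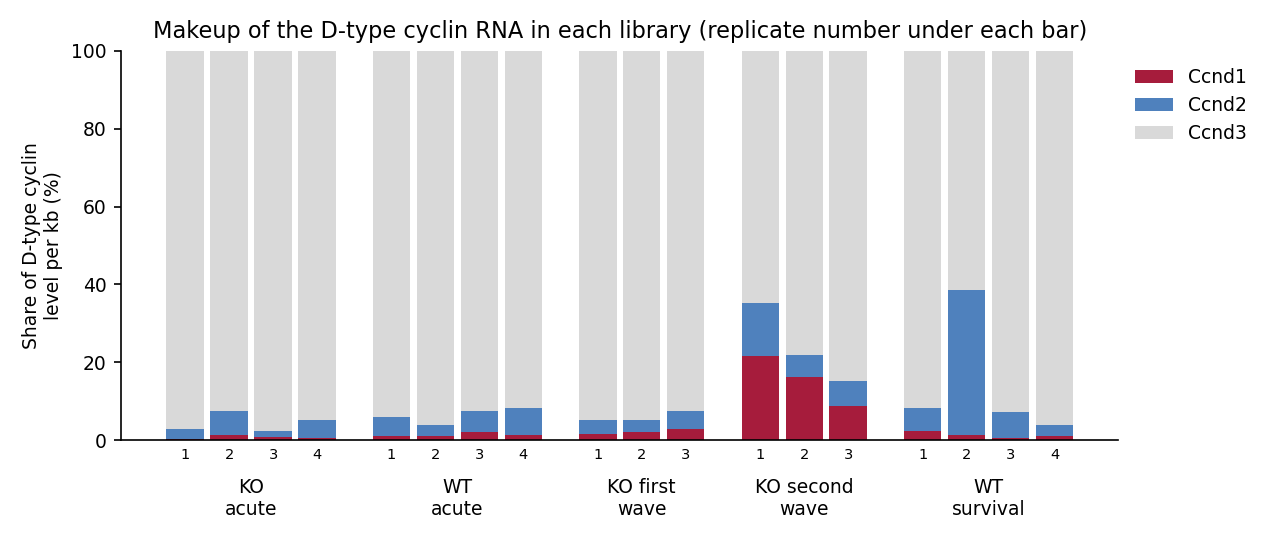
Share of each D cyclin in the summed D cyclin level per kb, in percent, for each library, with the replicate number under the bar. The Ccnd1 part is 8.82% to 21.5% in the second wave and at most 2.97% in the other groups, and the Ccnd2 part is 37.3% in WT survival library 2.

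Cdk4 and Cdk6 encode the kinases that D cyclins activate. Cdk6 (chr5:3341485-3531008, plus strand) had by far the higher level, with 83.2% to 85.2% of the 2 per length in the group means. None of the 4 tests of its share passed the threshold, but groups of this size left little room to pass, so an unchanged share is not shown. The second-wave libraries had 18948, 15924 and 13265 normalized counts of Cdk6, the first-wave libraries 12482, 10469 and 13223, and the WT survival libraries 10213, 8873, 14666 and 11527. The second wave lay just above the first wave and overlapped WT. Its log2 fold change was 0.51 against WT (SE 0.18, unadjusted p = 0.0125, limma adjusted p = 0.259; 0.29 without WT libraries 1 and 2) and 0.40 against the first wave (SE 0.19, adjusted p = 0.800). Within the second wave Ccnd1 and Cdk6 ran in the same order, highest in library 1 and lowest in library 3, and Ccnd3 in the opposite order, over 3 libraries only. None of the other members followed either order. An order of 3 libraries is easily matched by chance, and Ccnd1 was selected on these libraries, so no link between the genes is shown. Without library 1, Cdk6 was at 0.28 against the first wave and 0.39 against WT, and Ccnd1, given as a description, at 1.96 and 2.94.

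Cdk4 (chr10:127063534-127067920, plus strand) had 1279, 1047 and 1155 normalized counts in second-wave libraries, 752, 865 and 956 in first-wave libraries and 828, 701.5, 1106 and 971 in WT survival libraries. All second-wave libraries were above all first-wave libraries, and 1 WT library lay within the second-wave range. The log2 fold change was 0.44 against the first wave (SE 0.20, adjusted p = 0.784) and 0.38 against WT (SE 0.19, adjusted p = 0.419), or 0.36 and 0.31 without second-wave library 1, and 0.16 against WT without WT libraries 1 and 2. In the first wave against WT, Cdk4 had -0.06 and Cdk6 0.11, and in the acute comparison -0.15 and 0.02, with none called. Cdk4 overlaps Tspan31 on the opposite strand by 641 bases, and Tspan31 had a log2 fold change of 0.93 in the second wave against WT (adjusted p = 0.217).

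**Figure D5:**
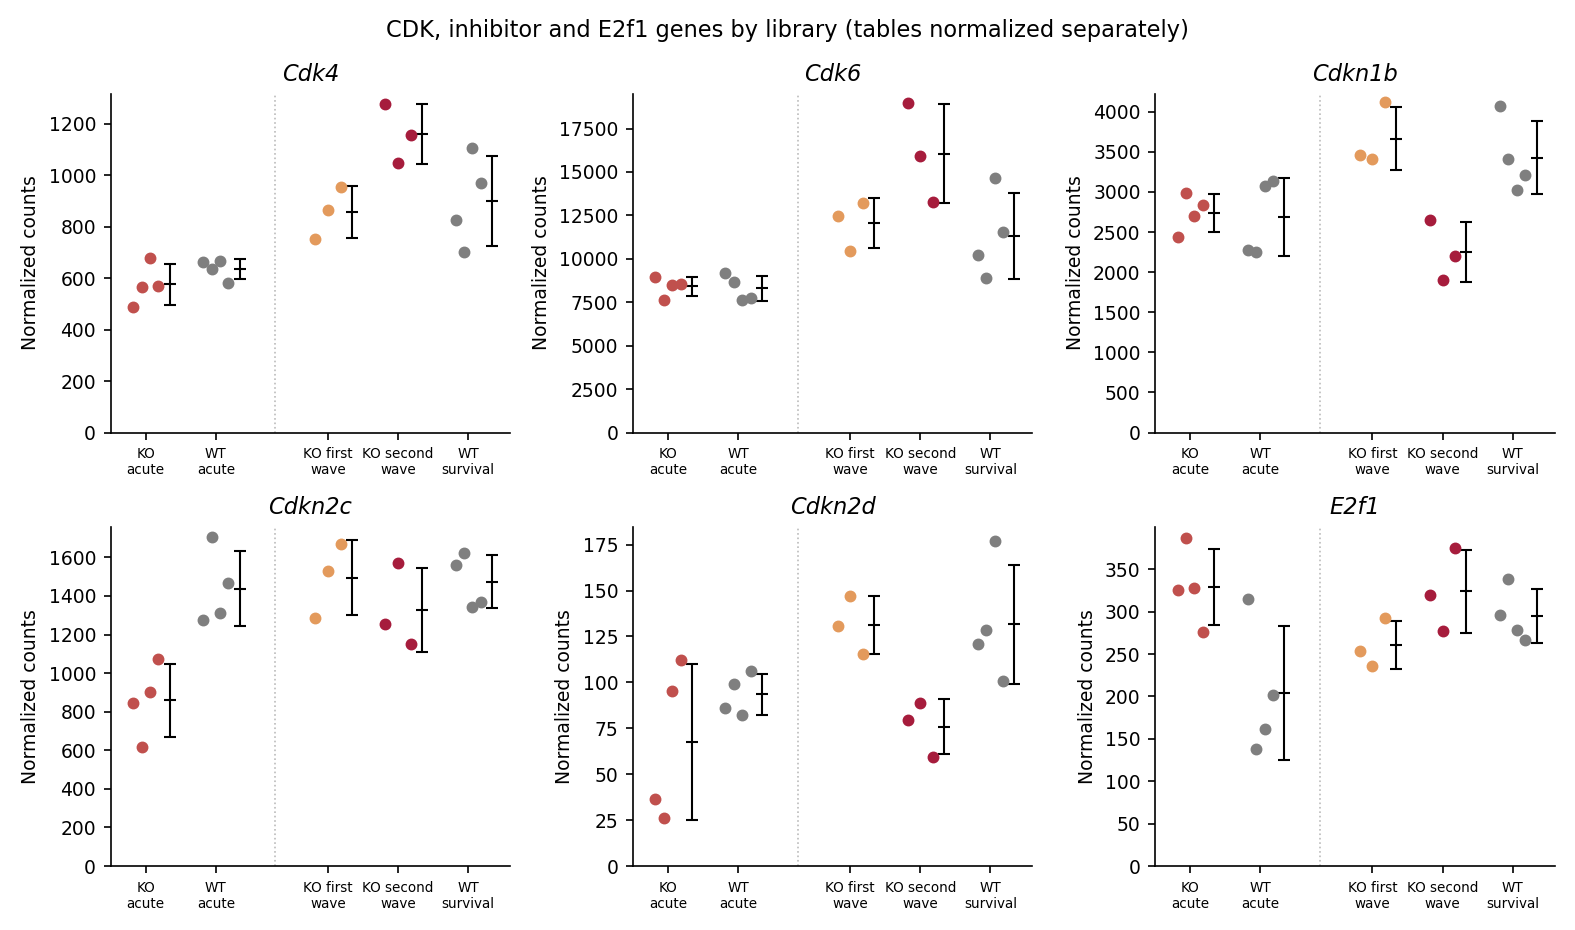
Normalized counts of Cdk4, Cdk6, Cdkn1b, Cdkn2c, Cdkn2d and E2f1 in each library (points), with group mean and SD. Cdkn2c is lower in all 4 KO acute libraries, and Cdkn1b and Cdkn2d are lower in all 3 second-wave libraries than in the first wave or WT survival.

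Among the inhibitors, Cdkn2c (chr4:109660876-109667189, minus strand), which encodes p18, fell in the acute comparison. KO acute libraries had 846, 616, 904 and 1073 normalized counts against 1273, 1703, 1309.9 and 1467 in WT acute libraries. All KO libraries were below all WT libraries, by a log2 fold change of -0.76 (SE 0.16, limma adjusted p = 0.00948). The call ended without KO libraries 1 and 2, which had the higher mitochondrial shares (-0.54, adjusted p = 0.0540), and under eBayes without a trend (adjusted p = 0.0655). T-ALL and thymocyte marker sums were also lower in every KO acute library, 54795 to 79471 against 83775 to 100261 in WT. The part of these markers in the Cdkn2c result was not tested. At the endpoint Cdkn2c was 1255, 1573 and 1152 in the second wave, 1286, 1529 and 1670.4 in the first wave and 1563, 1621, 1342 and 1371 in WT, with all groups overlapping and log2 fold changes of -0.16 (second wave) and 0.02 (first wave) against WT.

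Cdkn1b (chr6:134920401-134925513, plus strand), which encodes p27, had its lowest survival values in the second wave. The second-wave libraries had 2646, 1903 and 2196.5 normalized counts, the first-wave libraries 3465, 3409.5 and 4114.5, and the WT survival libraries 4066, 3409, 3025 and 3209.9. No second-wave library reached any library of the other groups. The log2 fold change was -0.61 against WT (SE 0.16, unadjusted p = 0.00203, limma adjusted p = 0.168) and -0.71 against the first wave (SE 0.17, unadjusted p = 0.00105, adjusted p = 0.238), so neither passed the correction over all genes. Without second-wave library 1 these values were -0.84 against the first wave and -0.74 against WT, and without WT libraries 1 and 2 the value against WT was -0.48. First wave against WT it was 0.10 and acute KO against WT 0.04, with overlapping groups.

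Cdkn2d (chr9:21288410-21291407, minus strand), which encodes the INK4 protein p19, had 79.7, 88.6 and 59.5 normalized counts in the second wave, 131, 147 and 116 in the first wave and 121, 128, 177 and 101 in WT. Here too the second-wave libraries lay below all others, with log2 fold changes of -0.78 against WT (SE 0.30, limma adjusted p = 0.290) and -0.79 against the first wave (SE 0.32, adjusted p = 0.680), or -0.82 and -0.84 without library 1, and -0.83 against WT without WT libraries 1 and 2. In the acute table KO libraries 1 and 2, with 36.3 and 26.1, were below the WT range of 82.4 to 106.0, and KO libraries 3 and 4 had 95.3 and 112. The acute log2 fold change of -0.71 (SE 0.42, adjusted p = 0.290) came to 0.15 without KO libraries 1 and 2.

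Marker sums of leukemic and other cells differed between the survival libraries. T-ALL and thymocyte markers summed to 88978 to 103661 normalized counts in the second wave, 114737 to 140670 in the first wave and 71535 to 117622 in WT survival, and second against first wave 0 of 15 tested were above 0 and none was called, at a median of -0.39. Second-wave library 1 had the highest erythroid sum (46048, against at most 33688 in the other groups) and the highest macrophage sum (2374, against at most 1486). The B-cell marker sum was 274 to 413 normalized counts in the second wave, 510.1 to 569 in the first wave and 509.7 to 806 in WT survival, and of 9 markers tested 8 had a negative log2 fold change against WT and 1, Pax5, was called (-4.81, adjusted p = 0.0239). Cd79a, Cd79b, Pax5 and Cd22 were each at 0 in at least 1 second-wave library. Stroma and endothelium markers summed to 2019 to 2604 in the second wave, 1706 to 2106 in the first wave and 1481 to 2049 in WT, mostly from Pdgfrb and Pecam1, while Dcn and Cdh5 were near 0 in every survival group. Col1a2, a collagen gene of that list, ranged from 71.1 to 416 in the second wave, from 11.1 to 28.8 in the first wave, and averaged 23.5 in WT. Col1a1, another collagen gene of the list and low in all 3 groups, went the other way. It ranged from 3.54 to 4.09 in the second wave, from 7.2 to 13.7 in the first wave and from 14.0 to 21.3 in WT. Of 6 stroma and endothelium markers tested, 3 had a positive log2 fold change in the second wave against WT, and 0 were called. The part of these markers in the second-wave values of the 10 genes was not tested.

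Rb1 (chr14:73183673-73325822, minus strand), which encodes the substrate of CDK4 and CDK6, overlapped between the groups in every comparison. Its log2 fold changes were -0.30 in the acute comparison (SE 0.17, adjusted p = 0.272), 0.14 in the first wave and -0.03 in the second wave against WT, and -0.17 between the waves. E2f1 (chr2:154559407-154569892, minus strand), an activator of S phase genes, had 326, 387, 328 and 276 normalized counts in KO acute libraries and 315, 137.5, 162 and 202 in WT acute libraries. WT library 1 lay within the KO range and the other WT libraries below it. The log2 fold change of 0.75 (SE 0.24) missed the threshold (limma adjusted p = 0.0546); it passed without WT library 1 (0.98, adjusted p = 0.0116), with quantile normalization (adjusted p = 0.0498) and with robust eBayes (adjusted p = 0.0497). At the endpoint E2f1 had log2 fold changes of -0.18 and 0.13 for the first and second wave against WT and 0.31 between the waves, none called.

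In the 6 lists of related genes, the calls in KO acute libraries are read against 8.07% of all genes called lower and 4.58% called higher. Every KO acute library also had a lower T-ALL and thymocyte marker sum than any WT acute library. The part of these markers in the calls was not tested. In the list of cyclin E-CDK2 and the CDK-activating kinase, 0 of 9 genes rose and 3 fell: Cdk2, the kinase of late G1 (961 ± 133 in KO and 1535 ± 161 in WT, SD, n = 4 each, log2 fold change -0.68, adjusted p = 0.00522), Ccne2, which encodes cyclin E2 (-0.76, adjusted p = 0.00901), and Skp2, part of the ligase that degrades p27 (-0.47, adjusted p = 0.0322, called in 5 of 16 alternatives). The list median was -0.47, against 0.03 over all genes, and -0.12 with the trend on length, GC and abundance removed. Of 11 other pocket protein, E2F and DP genes, 0 rose and 2 fell: Tfdp1, the dimer partner of E2Fs (3807 ± 322 in KO and 5710.0 ± 550.1 in WT, -0.58, adjusted p = 0.00361), and E2f6, a repressor (-0.62, adjusted p = 0.0216, called in 9 of 16 alternatives), with a list median of -0.19, or -0.09 with that trend removed. Only Cdk2 of the first list, and none of the second, was still called with that trend removed or with eBayes without a trend.

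Of 18 E2F targets of S phase entry, 0 rose and 5 fell in KO acute libraries, with a list median of -0.22, or -0.13 with the same trend removed. Among them were Pcna, the replication clamp (3578 ± 593 in KO and 6106 ± 660 in WT, SD, n = 4 each, -0.78, adjusted p = 0.00227), Rrm2 and Rrm1, the subunits of ribonucleotide reductase (-0.67 and -0.62, adjusted p = 0.00330 and 0.00878), and Mcm4, of the replicative helicase (-0.56, adjusted p = 0.0277, called in 7 of 16 alternatives). With the length, GC and abundance trend removed, 1 of the 18 was called, and it was none of these 4 genes (Pcna limma adjusted p = 0.0595). With eBayes without a trend, 1 of the 18 was called, Pcna. Of 12 genes of cyclin D turnover 1 rose, Fbxo31, an F-box protein that targets cyclin D1 (225 ± 31.7 in KO and 114 ± 16.2 in WT, 0.98, adjusted p = 0.00814), and 2 fell: Xpo1, the nuclear exporter (-0.77, adjusted p = 0.00149), and Cul4b, a cullin scaffold (-0.79, adjusted p = 0.00379), with a list median of -0.05. The Fbxo31 call ended without KO libraries 1 and 2 (0.82, adjusted p = 0.0763).

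Of 19 transcription factors tested that act on Ccnd1 in other cells, 0 rose and 3 fell in KO acute libraries: Sp1 (2033 ± 433 in KO and 4086.5 ± 384 in WT, SD, n = 4 each, log2 fold change -1.03, adjusted p = 0.000969), Tcf7, a T-lineage factor that partners beta-catenin (10308 ± 2352.5 in KO and 18946 ± 358 in WT, -0.91, adjusted p = 0.00158), and Stat5a (-0.46, adjusted p = 0.0461). The Stat5a call held in 4 of 16 alternatives and those of Sp1 and Tcf7 in all 16. The list median was -0.12, or 0.02 with the trend on length, GC and abundance removed. Tcf7 is also among the T-ALL and thymocyte markers, whose sums were lower in KO acute libraries. Of 4 other CDK inhibitors, only Cdkn1a passed the filter on low values, with a log2 fold change of 0.78 (SE 0.59, adjusted p = 0.415).

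At the endpoint, limma called 0 of the 70 genes tested of these lists in each of the 3 comparisons. An unadjusted p under 0.05 was found for 9 of them in the first wave against WT (8.02% of all genes), 12 in the second wave against WT (13.0%) and 4 in the second wave against the first (6.34%). Some list genes of small p are given as values, and others, such as E2f2, Gsk3a and Ets1, are left out. In the second wave against WT, E2f3 had a log2 fold change of 1.00 (adjusted p = 0.220), E2f5 0.95 (adjusted p = 0.221), Ccne2 0.57 (adjusted p = 0.262) and Ccne1, which encodes cyclin E1, 0.78 (adjusted p = 0.336). Xpo1, which was lower in the acute comparison, had 9071 ± 1415 normalized counts in the second wave and 6257 ± 1163 in WT (SD, n = 3 and 4), with overlapping groups and a log2 fold change of 0.54 (adjusted p = 0.231). Ambra1, which directs D cyclins to degradation, had 303 ± 95.9 normalized counts in the second wave, 321 ± 143 in the first wave (SD, n = 3 each) and 781.5 ± 293 in WT (SD, n = 4), with log2 fold changes of -1.31 (adjusted p = 0.199) and -1.27 (adjusted p = 0.617) against WT. For Ambra1 the groups overlapped in both comparisons, which share the 4 WT libraries.

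Jun, an AP-1 factor, had 29.4 ± 17.4 normalized counts in the second wave, 93.3 ± 15.7 in the first wave and 79.2 ± 29.1 in WT, with log2 fold changes of -1.56 against WT (adjusted p = 0.232) and -1.87 against the first wave (adjusted p = 0.409), and its second-wave libraries were below all others. Lef1 had 0.45 in the second wave and 0.49 in the first wave against WT (adjusted p = 0.286 and 0.617). Of the E2F targets, Gins1 (0.50) and Rrm2 (0.32) had the smallest p in the second wave against WT. Cdc6 (0.41) and Mcm3 (0.38) had it in the second wave against the first, and Uhrf1 (-0.32) and Cdt1 (-0.42) in the first wave against WT. Of the 18 targets, 16 were above 0 in the second wave against the first, 10 in the second wave against WT and 4 in the first wave against WT. The list medians were 0.18, 0.08 and -0.20 in the same order, against -0.01, -0.01 and 0.01 over all genes.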

How the data were processed

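RNA-seq values of 18 libraries were used as deposited: per the submitters' processing notes, the authors estimated reads per gene with kallisto 0.44.0 on GRCm38 and scaled them by DESeq size factors, which gives a signal of normalized counts. The version of that tool, the annotation of transcripts, any gene filter and the handling of strand are unknown here. The acute and survival tables were normalized separately, so values were compared within a table only. Whole reads were not recovered from the values, and no count model was used, so the depth is known only through the normalized totals, and the number of libraries limits the precision.

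Values were transformed to log2(value + 1), the genes kept had a mean of 10 or more across a table (all 10 members passed, with a mean of at least 10 in every group), and groups were compared with limma 3.58.1 in R 4.3.3 (lmFit, eBayes with trend). The acute fit held 8 libraries and the survival fit all 10, which share 1 estimate of the spread. Benjamini-Hochberg adjustment covered all genes tested, and the threshold of adjusted p was 0.05. Fold changes on this scale understate those of low genes. Shares of D cyclins and of Cdk6, per mean coding transcript length in GENCODE M21, were compared with exact permutation tests in SciPy 1.17.1 under Python 3.11.15. The scripts were tested on simulated data.

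Groups came from the sample titles. The members, gene lists and tests were chosen with earlier results of these data known. Beside the members, the text names Acly, the up to 4 called genes of smallest adjusted p in each list, the genes tested within 1 Mb of Ccnd1, and the 5 genes whose log2 values correlated best with Ccnd1 in the ranking described above. Where a list had none called, the up to 2 genes of smallest p were listed, and only some of these are named. Pax5 and the other markers were named after their values were seen. Replicate numbers did not pair libraries: the correlation of same-numbered libraries' deviations from their group means was -0.03 to 0.09. Alternatives covered the pseudocount, filter, normalization, variance model, length, GC and abundance trend, replicate block and left-out libraries. For the gene lists in the acute comparison they were added after the data were seen.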

Additional observations from a re-analysis of the deposited data

Results flagged for a closer look

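In 39 groups of 4 libraries, chance flags about 1 in 20, and 3 values lay far from the rest of their group. Ccnd2 had 1071 normalized counts in WT survival library 2, and the Ccnd2 share of Ccnd2 and Ccnd3 was 37.8% in the same library. The cyclin D1 share was 2.08% in WT acute library 3. Both libraries are WT.

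For Ccnd3, every KO acute library was above the mean of the WT acute libraries and every second-wave library below the mean of the WT survival libraries. The log2 fold changes differed by 1.23 between the acute comparison and the second wave. The tables were normalized separately and this difference was not tested. The Ccnd3 fold changes of the first and the second wave differed by 0.84 and lay on opposite sides of 0, and the direct comparison of the waves had a limma adjusted p = 0.401. For E2f1 every KO acute library was above its WT mean and every first-wave library below its own. These fold changes differed by 0.93, a difference that was not tested.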

How the results depend on the processing

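Of 73 recounts of the members past the threshold, 68 equalled the reported count. In the acute comparison 1 member was called, rather than 2, with eBayes without trend and without both KO acute libraries of high mitochondrial share, since Cdkn2c missed the threshold, and 3 with quantile normalization, with robust eBayes and without WT acute library 1, since E2f1 passed. No result changed sign while called. The count over all genes moved more. It was 1794 in the acute comparison, 693 with eBayes without trend, 903 without both KO libraries of high mitochondrial share, and 983 to 1634 with 1 library left out. In the first wave it was 0, but 1 with a pseudocount of 5, with no filter, with quantile normalization, with robust eBayes and with the length, GC and abundance trend removed, 3 without both WT survival libraries that stand apart, and 0 to 3 with 1 library left out. In the second wave against WT it was 32, but 14 with eBayes without trend, 14 without both of those WT libraries, 13 with only the 2 groups fitted, and 15 to 140.0 with 1 library left out. Between the waves it was 17, but 1 with eBayes without trend, 34 without both of those WT libraries, and 1 to 38 with 1 library left out. The cause of these moves was not tested.

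With the replicate block the count between the waves was 2, and no member changed its call; 2 of 18 libraries correlated best with a library of their own number. The second-wave difference in cyclin D1 share was 14.2 points against WT and 13.3 against the first wave, 24.6 and 22.9 with the longest transcript as length, and 32.1 and 28.9 with no division by length. Depth is known only through the normalized totals, and 3 or 4 libraries a group limit the precision.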
